A study of Rattus norvegicus with 10 samples.

Results

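The genes described here carry the insulin signal in fat and take up glucose in answer to it. They include the receptor Insr, its substrates Irs1, Irs2 and Irs3, the regulatory kinase subunit Pik3r1 and the kinase Akt2. The others are the transcription factor Foxo1, the adaptor Grb14, the glucose transporter Slc2a4 and the hexokinase Hk2. Every probe set with exactly 1 gene symbol in the platform annotation and that symbol among these 10 genes was taken. This gave 17 probe sets of the 31042 tested, with at least 1 for each of the 10 genes, out of 14217 gene symbols on the array.

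Gene expression was measured in white adipose tissue of 10 male rats aged 13 weeks, with 1 rat expression array per animal. The noodle group of 5 rats received a diet with 30% instant noodle by weight and the seasonings, in which fat supplied 26% of the energy, for 30 days (4 weeks in another field of the labels). The control group of 5 rats received the same diet without the seasonings. The animals were pair-fed, each taking some 60 g/kg daily. Depot and strain are not stated in the labels, which name 1 tissue sample per animal.

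Insulin binding activates the receptor's own tyrosine kinase, which phosphorylates the insulin receptor substrates. These recruit phosphoinositide 3-kinase, whose lipid product activates AKT. In fat cells AKT2 drives vesicles with the glucose transporter GLUT4 to the cell surface and keeps FOXO proteins out of the nucleus. Hexokinase then traps the glucose inside the cell by phosphorylation.

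Array medians lay between 6.175 and 6.182 on the deposited log2 scale. Control animal 14 had the lowest mean correlation with the other arrays, at 0.9948, against 0.9959 to 0.9969 in the other 9 animals. The label text on RNA extraction speaks of brain, so marker levels were checked. Of 16 adipocyte markers 15 were measured, with a median level of 11.8 and Car3 highest at 13.6. Of 12 brain markers 11 were measured, with a median of 5.74, below the array medians, and Mbp highest at 8.76. Markers of skeletal muscle, where Slc2a4 and Hk2 are also expressed, had a median of 5.77 over 11 measured genes, with Myh1 highest at 10.3.

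Most values in the table hardly varied between animals. Probe sets whose SD over the 10 arrays was 0.01 log2 units or less are called flat, and the others variable. By this rule 10 of the 17 member probe sets were flat, or 58.8%, against 91.6% of all probe sets. The flat member nearest the limit was Irs2 with an SD of 0.00321, and the variable member nearest it was Grb14 with an SD of 0.0364. Of the 10 genes, 6 had a variable probe set. Insr, Irs1, Irs2 and Foxo1 had flat probe sets only, so neither the size of a diet difference nor the spread between animals can be read for them from these values. A level is given for each probe set, but probe sets bind their targets unequally, so levels of different genes cannot be ranked.

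**Figure D1:**
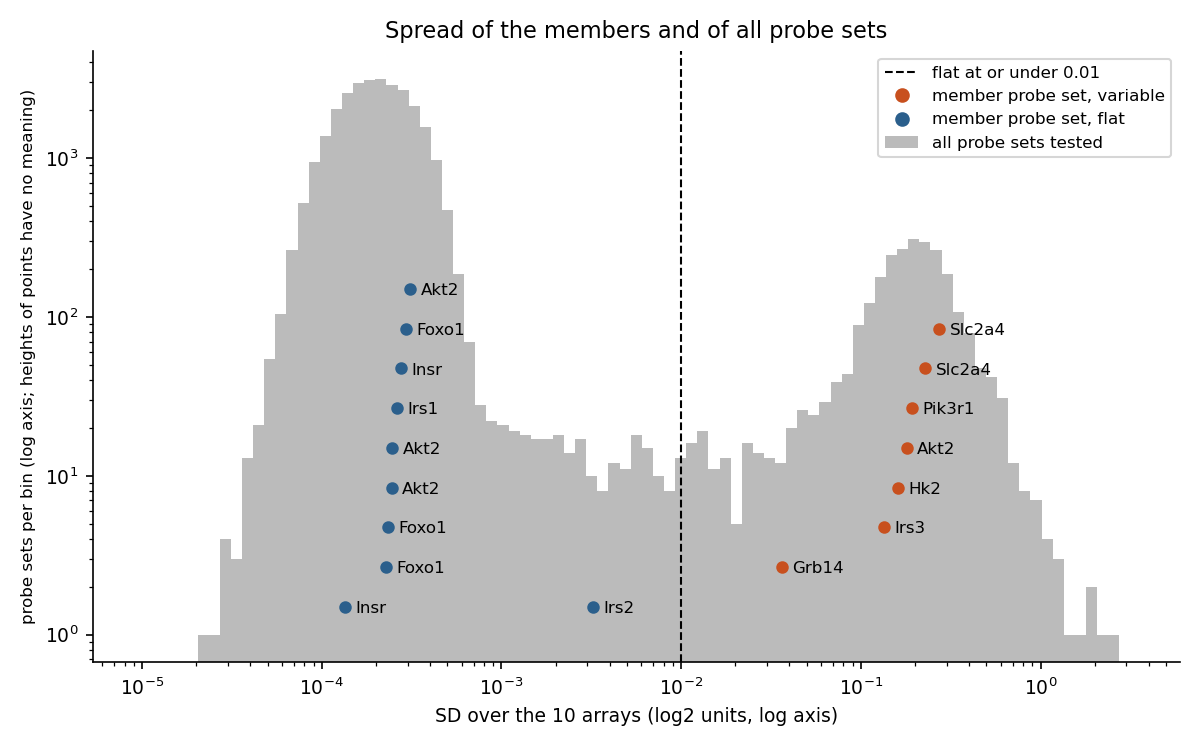
SD over the 10 arrays on a log axis for all 31042 probe sets (grey, number per bin on a log axis) and for the 17 member probe sets (points, whose height has no meaning). Of the members, 10 lie at or under the dashed limit of 0.01 and 7 above it, with Irs2 (0.00321) and Grb14 (0.0364) in the sparse stretch between the humps.

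No member passed the test of a difference between the diets. With limma and Benjamini-Hochberg adjustment over all 31042 probe sets, 0 of the 7 variable member probe sets passed an adjusted p of 0.05, beside 0% of all probe sets (1 probe set without control animal 14). Their adjusted p lay between 0.993 and 1. At an unadjusted p under 0.05 there were 0 of the 7, against 8.13% of the 2607 variable probe sets, made up of 2.8% with a higher and 5.33% with a lower noodle mean. With flat ones included it was 1 of 17, against 4.77% of all probe sets. Of the 7, 5 had a higher and 2 a lower mean in the noodle group, with a median difference of 0.08 log2 units. Among all 2607 variable probe sets 44.6% had a higher mean and the median difference was -0.01. In 0 of the 7 were the groups fully apart, against 0.959% of variable probe sets. In bulk tissue, fewer cells of a type and less RNA per cell cannot be told apart.

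**Figure D2:**
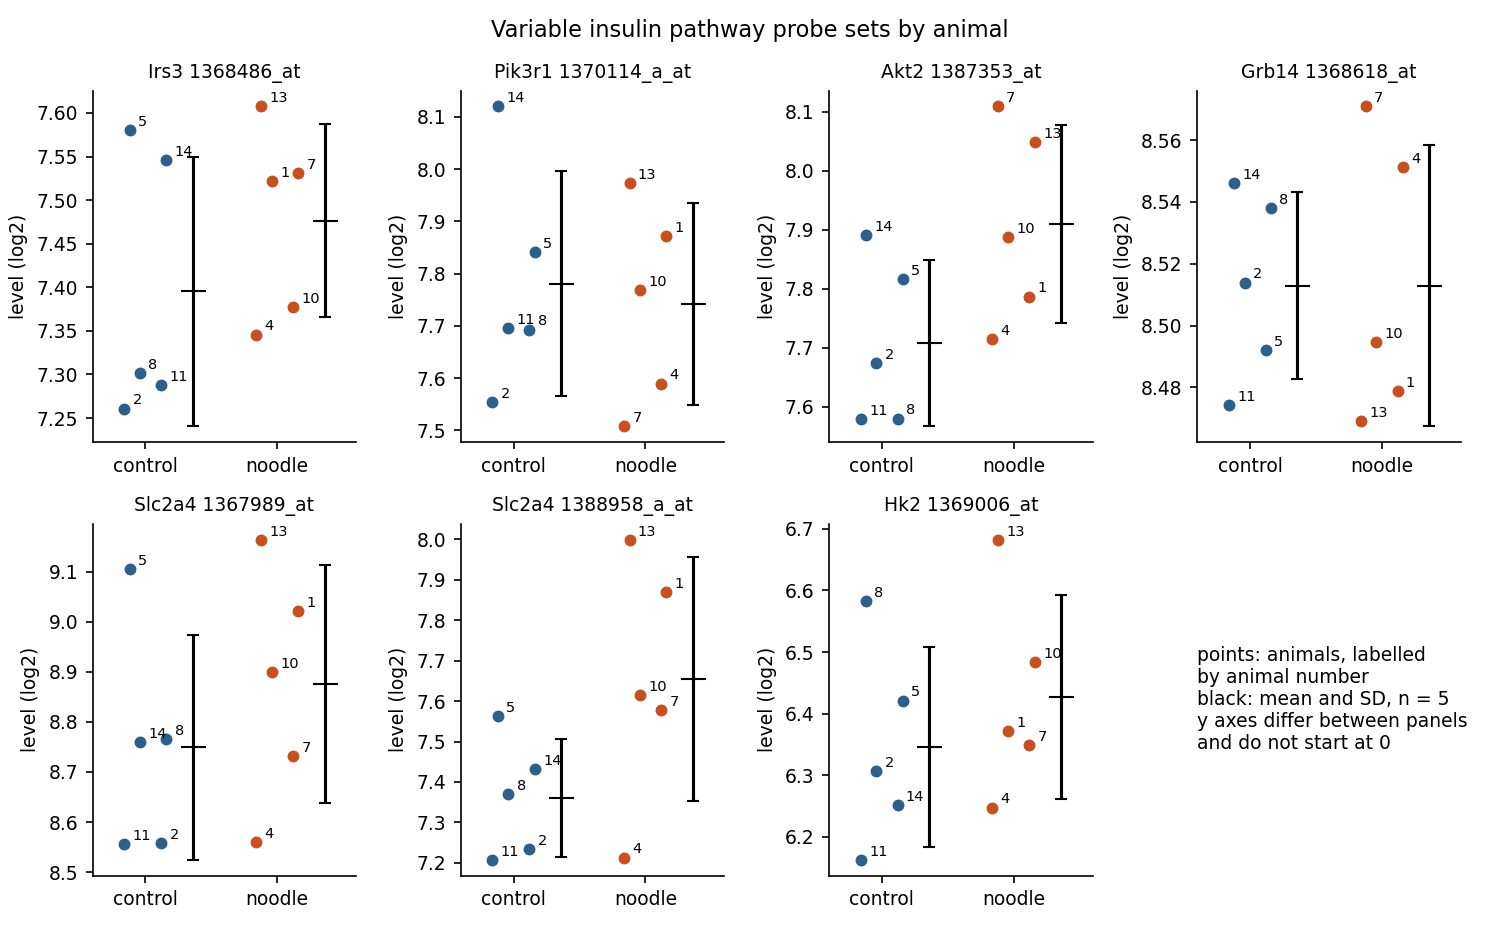
Level (log2) of each of the 7 variable member probe sets in every animal, by diet, with the mean and SD of 5 animals in black. Control and noodle animals overlap in each panel, and noodle animal 13 is the highest point for Irs3, Hk2 and both Slc2a4 probe sets.

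Insr encodes the receptor itself. Its 2 probe sets stood at 6.64 and 5.89, with SDs over the 10 animals of 2.75e-04 and 1.35e-04. Both lie deep in the flat part of the distribution, and the receptor's mRNA can be described here by its level alone.

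The substrates differed in what could be read. Irs1, the substrate most studied in fat and muscle, stood at 5.67 on its 1 probe set, and Irs2, best known from liver, at 7.63. Both were flat, though Irs2 ranged more than the other flat members, from 7.626 in noodle animal 13 to 7.636 in control animal 8. Irs3 is a short substrate found mainly in rodent fat cells, and it was the 1 substrate with a variable probe set.

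Irs3 stood at 7.52, 7.35, 7.53, 7.38 and 7.61 in noodle animals 1, 4, 7, 10 and 13, and at 7.26, 7.58, 7.30, 7.29 and 7.55 in control animals 2, 5, 8, 11 and 14. Control animals 5 and 14 lay among the high noodle animals, and the other 3 controls lay below every noodle animal. The group means were 7.48 ± 0.11 and 7.40 ± 0.15 (SD, n = 5). The difference was 0.08 ± 0.08 (SE), with a 95% interval of -0.11 to 0.27 and an exact permutation p of 0.294. That interval allows from 0.929-fold to 1.205-fold. With the 3-prime to 5-prime difference described below as a covariate, the Irs3 difference was 0.01.

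Pik3r1 encodes p85 alpha, the regulatory subunit that docks phosphoinositide 3-kinase onto the substrates. It stood at 7.87, 7.59, 7.51, 7.77 and 7.97 in noodle animals 1, 4, 7, 10 and 13, and at 7.55, 7.84, 7.69, 7.70 and 8.12 in control animals 2, 5, 8, 11 and 14. Both the highest control, animal 14, and the lowest noodle animal, 7, lay outside the other group's range. The difference was -0.04 ± 0.13 (SE, n = 5 per group), the 95% interval ran from -0.32 to 0.25 and the exact permutation p was 0.754. Its sign turned without control animal 14, to 0.05, and without noodle animal 7, to 0.02. With the 3-prime to 5-prime covariate it was -0.17.

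Akt2, the AKT isoform tied to glucose uptake, had 4 probe sets, of which 3 were flat at 9.10, 7.91 and 5.93. The variable probe set 1387353_at stood at 7.79, 7.71, 8.11, 7.89 and 8.05 in noodle animals 1, 4, 7, 10 and 13. In control animals 2, 5, 8, 11 and 14 it stood at 7.67, 7.82, 7.58, 7.58 and 7.89. Noodle animals 7 and 13 lay above every control, and all 5 noodle animals lay above the control mean. The group means were 7.91 ± 0.17 and 7.71 ± 0.14 (SD, n = 5), a difference of 0.20 ± 0.09 (SE) or 1.15-fold. Its unadjusted p, 0.0644 in limma and 0.0794 in the exact permutation test, was the smallest of the 7, and its 95% interval ran from -0.02 to 0.42. With the 3-prime to 5-prime covariate the Akt2 difference fell to 0.10 ± 0.12.

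Irs3 and Akt2 were the pair of members with the highest Pearson's r over the animals (on rho, Slc2a4 with Hk2 was higher), so the sequence before their start sites is shown. Promoters of 8 of the 10 genes were matched in the RefSeq table of build GRCr8. The 250 bases before the start of Irs3 (chr12:24689680-24689929, plus strand) and of Akt2 (chr1:92021667-92021916, plus strand) are given 5′ to 3′. Capitals mark the CCAAT box (CCAAT or ATTGG) and the GC box (GGGCGG or CCGCCC) on either strand, and these motifs do not overlap here.
Irs3: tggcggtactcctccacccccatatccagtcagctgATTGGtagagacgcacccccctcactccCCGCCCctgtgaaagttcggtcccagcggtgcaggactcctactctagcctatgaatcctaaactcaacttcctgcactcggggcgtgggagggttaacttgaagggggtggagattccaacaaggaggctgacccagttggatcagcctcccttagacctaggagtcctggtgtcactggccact
Akt2: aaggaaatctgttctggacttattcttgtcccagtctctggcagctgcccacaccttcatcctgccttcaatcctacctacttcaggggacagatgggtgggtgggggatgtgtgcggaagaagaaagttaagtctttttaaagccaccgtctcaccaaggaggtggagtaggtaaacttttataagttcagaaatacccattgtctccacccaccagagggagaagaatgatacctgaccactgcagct
Irs3 held 1 CCAAT box and 1 GC box, and Akt2 held neither. Over all 33469 promoters of this length in the table, 34% held the CCAAT box and 30.5% the GC box. The E-box CACGTG was in none of the 8 member promoters and in 5.59% of all. The FOXO element TTGTTTAC, on either strand, was in 0.947% of all promoters and in 1 of the 8, that of Insr, the receptor gene whose probe sets were flat. A match describes these letters and does not show binding.

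Foxo1 encodes a transcription factor that AKT phosphorylates and so shuts out of the nucleus. Its 3 probe sets stood at 6.58, 6.06 and 5.68 with SDs of 2.33e-04, 2.27e-04 and 2.96e-04, all flat. Genes known as FOXO targets are described with the other pathway genes below.

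Grb14 encodes an adaptor that binds the active receptor and inhibits its kinase. It stood at 8.48, 8.55, 8.57, 8.49 and 8.47 in noodle animals 1, 4, 7, 10 and 13, and at 8.51, 8.49, 8.54, 8.47 and 8.55 in control animals 2, 5, 8, 11 and 14. The animals lay within 0.10 log2 units of each other, or 1.07-fold, the smallest range of the 7 variable probe sets. Both group means were 8.51, and the difference of -2.37e-05 ± 0.0236 (SE) had a 95% interval of -0.05 to 0.05. The sign of so small a value has no meaning, and it turned under 9 of the alternatives tried.

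Slc2a4 encodes GLUT4, the insulin-responsive glucose transporter of fat and muscle, and both of its probe sets were variable. On 1367989_at it stood at 9.02, 8.56, 8.73, 8.90 and 9.16 in noodle animals 1, 4, 7, 10 and 13, and at 8.56, 9.11, 8.77, 8.56 and 8.76 in control animals 2, 5, 8, 11 and 14. Noodle animal 4 was as low as control animals 2 and 11, and control animal 5 was nearly as high as noodle animal 13. The difference was 0.13 ± 0.14 (SE), with a 95% interval of -0.20 to 0.45 and an exact permutation p of 0.389. Without noodle animal 13 it was 0.05, and without control animal 5 it was 0.22.

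On 1388958_a_at, Slc2a4 stood at 7.87, 7.21, 7.58, 7.61 and 7.998 in the same noodle animals and at 7.23, 7.56, 7.37, 7.21 and 7.43 in the same controls. Here 4 of 5 noodle animals lay above every control, and noodle animal 4 lay near the bottom. The means were 7.65 ± 0.30 and 7.36 ± 0.15 (SD, n = 5), a difference of 0.29 ± 0.15 (SE) or 1.23-fold. The 95% interval ran from -0.04 to 0.63, and the unadjusted p was 0.0762 in limma and 0.0873 in the exact permutation test. Without noodle animal 4 the difference was 0.40 and the unadjusted limma p 0.00744, with an adjusted p of 0.986. Without noodle animal 13 the difference was 0.21 and the unadjusted limma p 0.164.

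The 2 Slc2a4 probe sets ranked the animals much alike but gave different diet differences. Over the 10 animals they correlated with r = 0.89 (permutation p = 5.0e-04, adjusted p = 0.0055 over 11 pairs of probe sets of 1 gene) and rho = 0.84 (permutation p = 0.00352, adjusted p = 0.0387). Without the 2 animals farthest from the median r was 0.95. The level of 1388958_a_at minus that of 1367989_at averaged -1.22 ± 0.09 over the 5 noodle animals and -1.39 ± 0.09 over the 5 controls (SD). This gap differed by 0.17 between the diets (exact permutation p = 0.0238, chosen after the values were seen). Without control animal 5 the difference was 0.13 and the exact p 0.0635.

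A sign of RNA quality moved with that gap. Control probe sets for Actb and Gapdh at the 3-prime end exceeded those at the 5-prime end by 0.84 ± 0.07 over noodle animals and by 0.95 ± 0.08 over controls (SD of 5 each, exact permutation p = 0.0476). Across the 10 animals this 3-prime to 5-prime difference correlated with the gap at r = -0.88 (permutation p = 0.00112) and rho = -0.76 (permutation p = 0.015). The correlation r was -0.73 without noodle animal 13 and control animal 5, and -0.79 with the diet means removed. With this measure as a covariate the difference was 0.19 ± 0.19 on 1388958_a_at and 0.13 ± 0.19 on 1367989_at (SE). Its part in the diet differences was not tested beyond that.

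Hk2 encodes the hexokinase that insulin induces in fat and muscle. It stood at 6.37, 6.25, 6.35, 6.48 and 6.68 in noodle animals 1, 4, 7, 10 and 13, and at 6.31, 6.42, 6.58, 6.16 and 6.25 in control animals 2, 5, 8, 11 and 14. The groups overlapped over most of their range, with noodle animal 13 above and control animal 11 below all others. The difference was 0.08 ± 0.10 (SE), with a 95% interval of -0.15 to 0.31 and an exact permutation p of 0.46. Without noodle animal 13 it was 0.02, and without control animal 8 it was 0.14.

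**Figure D3:**
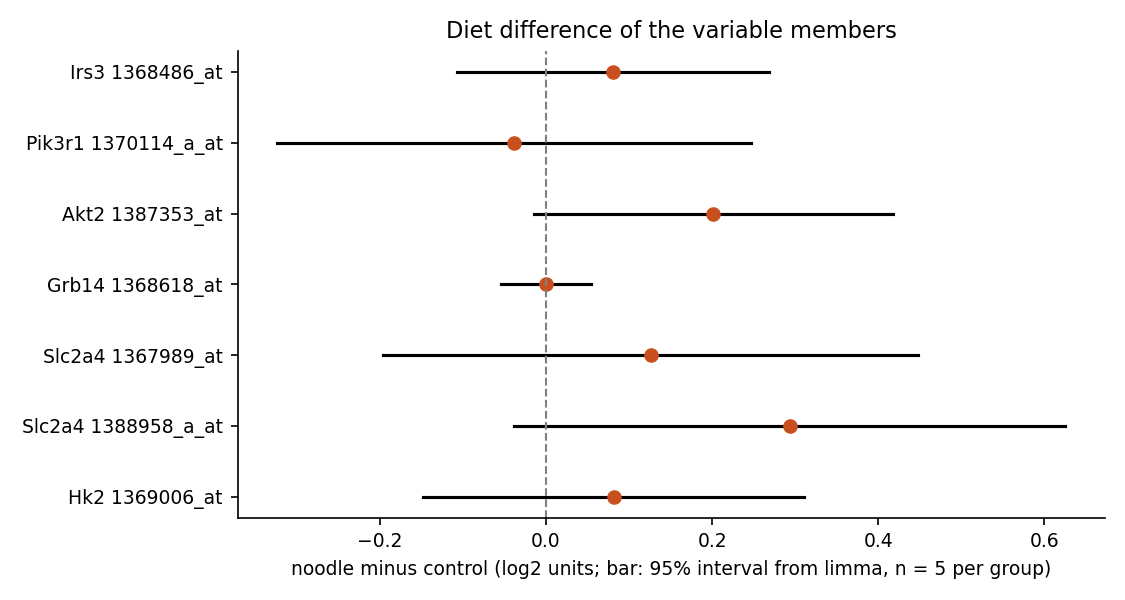
Diet difference (noodle minus control, log2 units) of the 7 variable member probe sets, with 95% intervals from limma. Each interval includes 0, and that of Grb14, from -0.05 to 0.05, is the narrowest.

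The spread between animals was widest for Slc2a4 and narrowest for Grb14. The SD over the 10 animals had a median of 0.18 over the 7 probe sets, against 0.19 over all 2607 variable ones. The highest animal exceeded the lowest by 1.73-fold and 1.52-fold on the 2 Slc2a4 probe sets, 1.53-fold for Pik3r1, 1.44-fold for Akt2, 1.43-fold for Hk2 and 1.27-fold for Irs3. The difference between the diet means made up 34.5% of the variance over animals for Akt2 and 32.3% for Slc2a4 on 1388958_a_at. Neither difference passed the test of the diets, with an exact permutation p of 0.0794 and 0.0873. For the other 5 probe sets this share was 10.2% or less. Noodle animal 13 was the highest animal in 4 of the 7 probe sets and control animal 11 the lowest in 4. Control animal 2 was among the lowest 3 in 5 of the 7. A noodle animal was the highest in 6 of the 7, with noodle animal 13 in 4 of them. A control was the lowest in 5, with control animal 11 in 4 of them. These counts are not independent, as 2 of the 7 are Slc2a4 probe sets. The matching share over all variable probe sets was not counted.

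The levels of 3 pairs of members gave the highest correlations between animals. Irs3 and Slc2a4 (1367989_at) correlated over the 10 animals with r = 0.78 (permutation p = 0.0137) and rho = 0.77 (permutation p = 0.0129). Irs3 and Akt2, the pair whose upstream sequences are shown, had r = 0.78 (permutation p = 0.00997) and rho = 0.82 (permutation p = 0.00605). For Slc2a4 and Hk2, r was 0.71 (permutation p = 0.023) and rho 0.83 (permutation p = 0.00467). With the diet means removed these 3 values of r were 0.76, 0.78 and 0.68. They were 0.65, 0.70 and 0.56 without the 2 animals farthest from the median of the first gene.

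After adjustment over all 15 pairs of the 6 variable genes, 0 pairs passed on r, where the adjusted p of these 3 pairs was 0.103, 0.103 and 0.115. On rho, Irs3 with Akt2 and Slc2a4 with Hk2 passed, each with an adjusted p of 0.0454, and Irs3 with Slc2a4 had 0.0644. Both of these calls ended under quantile normalization (adjusted permutation p = 0.105 and 0.0645) and with the diet means removed (0.135 each). With the other Slc2a4 probe set the adjusted permutation p was 0.0862 for each. Irs3 with Akt2 uses no Slc2a4 probe set, so its rho (0.82) and permutation p (0.00605) were the same there. Only the adjustment over the 15 pairs moved its value. Each call held in 3 of the 10 fits that left out an animal. Of the 15 values of r, 11 were positive. The 4 negative ones all involved Grb14, the inhibitor of the receptor, the lowest being that with Slc2a4 at r = -0.51 (permutation p = 0.132, adjusted p = 0.288) and rho = -0.42 (permutation p = 0.233).

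**Figure D4:**
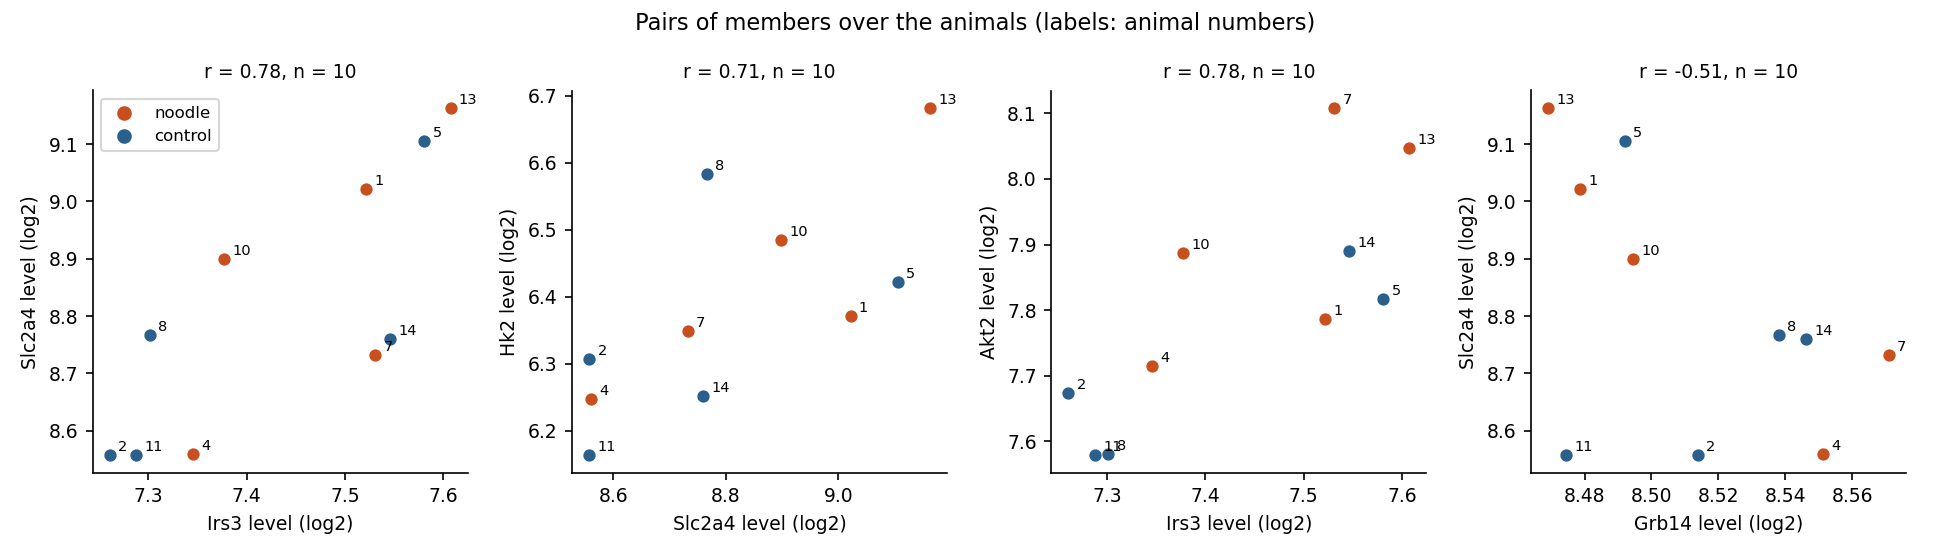
Levels (log2) of 4 pairs of members in the 10 animals, coloured by diet and labelled by animal number, with Pearson's r. Irs3 with Slc2a4, Slc2a4 with Hk2 and Irs3 with Akt2 rise together, and Grb14 with Slc2a4 has r = -0.51, with adjusted p above 0.05 for r in each of the 4 pairs.

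The probe sets most like 3 of the members over the 10 arrays are given as a description. For Slc2a4 (1367989_at), among 2078 variable probe sets of other single genes, they were those of the malate dehydrogenase Mdh1 with r = 0.96, the isocitrate dehydrogenase subunit Idh3g with r = 0.93 and the choline phosphotransferase Chpt1 with r = 0.93. For Irs3 they were Uqcrc2, a subunit of respiratory complex III (r = 0.94), Ghitm (r = 0.92) and Tufm, a mitochondrial elongation factor (r = 0.91). For Hk2 they were Tmem14c (r = 0.86), Tenm4 (r = 0.85) and Rpe, an enzyme of the pentose phosphate pathway (r = 0.84). These were picked as the highest of all values searched, so each overstates the likeness. With the diet means removed the 9 values lay between 0.83 and 0.98. None of these 9 genes differed between the diets by more than 0.14 log2 units.

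Members were also set against markers of other cells in the tissue. The means of the adipocyte, macrophage, endothelial and mesothelial lists and the 3-prime to 5-prime difference were each correlated with the 6 variable genes, and 0 of the 30 relations passed after adjustment. The lowest adjusted p was 0.469. Akt2 and the 3-prime to 5-prime difference had r = -0.64 (permutation p = 0.047) and rho = -0.67 (permutation p = 0.039). That r was -0.79 without the 2 most distant animals and -0.43 with the diet means removed. For Irs3 and the same measure, r was -0.46 (permutation p = 0.18) and rho -0.52 (permutation p = 0.134). The Irs3 value of r was -0.96 without the 2 most distant animals and -0.35 with the diet means removed. The part of this measure in the correlation of Irs3 with Akt2 was not tested. The steepest for Slc2a4 was with the 6 variable endothelial markers, at r = -0.69 (permutation p = 0.0263) and rho = -0.54 (permutation p = 0.112), and r was -0.47 without the 2 most distant animals. Summed as a mean deviation in log2 units, endothelial markers ranged from -0.15 to 0.25 in the noodle group and from -0.10 to 0.19 in the controls. Adipocyte markers ranged from -0.11 to 0.09 and from -0.03 to 0.03, and macrophage markers from -0.20 to 0.29 and from -0.31 to 0.20. Mesothelial markers ranged from -0.55 to 0.19 and from -0.60 to 0.77. The 11 macrophage markers, all variable, had higher means in the noodle group, with a median difference of 0.16 and 0 passing. The 7 mesothelial markers, also all variable, had lower means in the noodle group, with a median difference of -0.27 and 0 passing, and Krt8 alone (-0.54 ± 0.17, SE) had an unadjusted p under 0.05. Between the diets, the list means had an exact permutation p of 0.175 for macrophage and 0.349 for mesothelial markers. Their part in the members' values was not tested.

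The other genes of the pathway, from lists of 4 roles, were then counted. Of 50 other insulin signalling genes 43 were measured, 35 of them flat, and of the 8 variable ones 4 had a higher and 4 a lower mean, with 0 passing. Ptprf, a receptor phosphatase, differed by -0.30 ± 0.17 (SE, n = 5 per group) and Eif4ebp1, a translation repressor downstream of mTOR, by -0.22 ± 0.16. Enpp1, a membrane protein that inhibits the receptor, differed by -0.14 ± 0.11 and the kinase gene Gsk3b by -0.02 ± 0.01. Without control animal 14 the difference was -0.18 for Ptprf, -0.06 for Enpp1 and -0.01 for Gsk3b, and without control animal 5 it was -0.11 for Eif4ebp1. Other animals moved the values the other way. Without control animal 8 the difference was -0.38 for Ptprf and -0.22 for Enpp1. It was -0.03 for Gsk3b without noodle animal 13 and -0.33 for Eif4ebp1 without control animal 2. With the 3-prime to 5-prime covariate it was -0.54 for Ptprf. The median difference of the 8 was -0.01, the same to 2 decimals as that of all variable probe sets.

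Genes that move GLUT4 vesicles were flat in 20 of 22 measured cases of 24. The 2 variable ones were Tbc1d4, the AKT substrate that holds the vesicles back, at -0.07 ± 0.11, and the SNARE gene Snap23 at 0.11 ± 0.14 (SE). For glucose transport, glycolysis and glycogen, 29 of 37 genes were measured and 11 were variable, 6 with a higher and 5 with a lower mean and 0 passing. Txnip, which restrains glucose uptake, differed by -0.23 ± 0.14 and Pfkfb3, which sets the level of a glycolytic activator, by -0.20 ± 0.22. Pgm1 and Pfkfb1 differed by 0.08 ± 0.10 and -0.08 ± 0.11. Single animals moved these values in both directions. Pgm1 was 0.0037 without control animal 14 and 0.12 without control animal 5. Pfkfb1 was -0.02 without noodle animal 4 and -0.15 without control animal 2. Txnip was -0.12 without noodle animal 13 and -0.31 without noodle animal 4. Pfkfb3 was -0.10 without control animal 5 and -0.38 without control animal 11. Snap23 was 0.03 without control animal 11 and 0.21 without noodle animal 1. The sign for Tbc1d4 turned without noodle animal 4 or control animal 5, and that for Pfkfb3 with the 3-prime to 5-prime covariate.

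Among 16 FOXO target genes, all measured, 8 were variable, 3 with a higher and 5 with a lower mean. Of these 8, 2 had an unadjusted p under 0.05, beside 8.13% of all variable probe sets, and 0 passed. Bcl6, a repressor that also answers growth hormone, differed by 1.003 ± 0.349 (SE) or 2-fold, and Sod2, the mitochondrial superoxide dismutase, by 0.04 ± 0.01, each with an adjusted p of 0.993. Fitted with variable probe sets only, Sod2 had an SE of 0.038 and an unadjusted limma p of 0.309. With the 3-prime to 5-prime covariate its p was 0.102. In the other alternatives it stayed under 0.05. For Bcl6 the p in these fits was 0.0122 with variable probe sets only and 0.0139 with the covariate. Cited2 and the triglyceride lipase Pnpla2 differed by -0.17 ± 0.23 and -0.09 ± 0.08. Cited2 was -0.02 without control animal 8, and Pnpla2 -0.04 without control animal 14. The median difference of the list was -0.06.

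**Figure D5:**
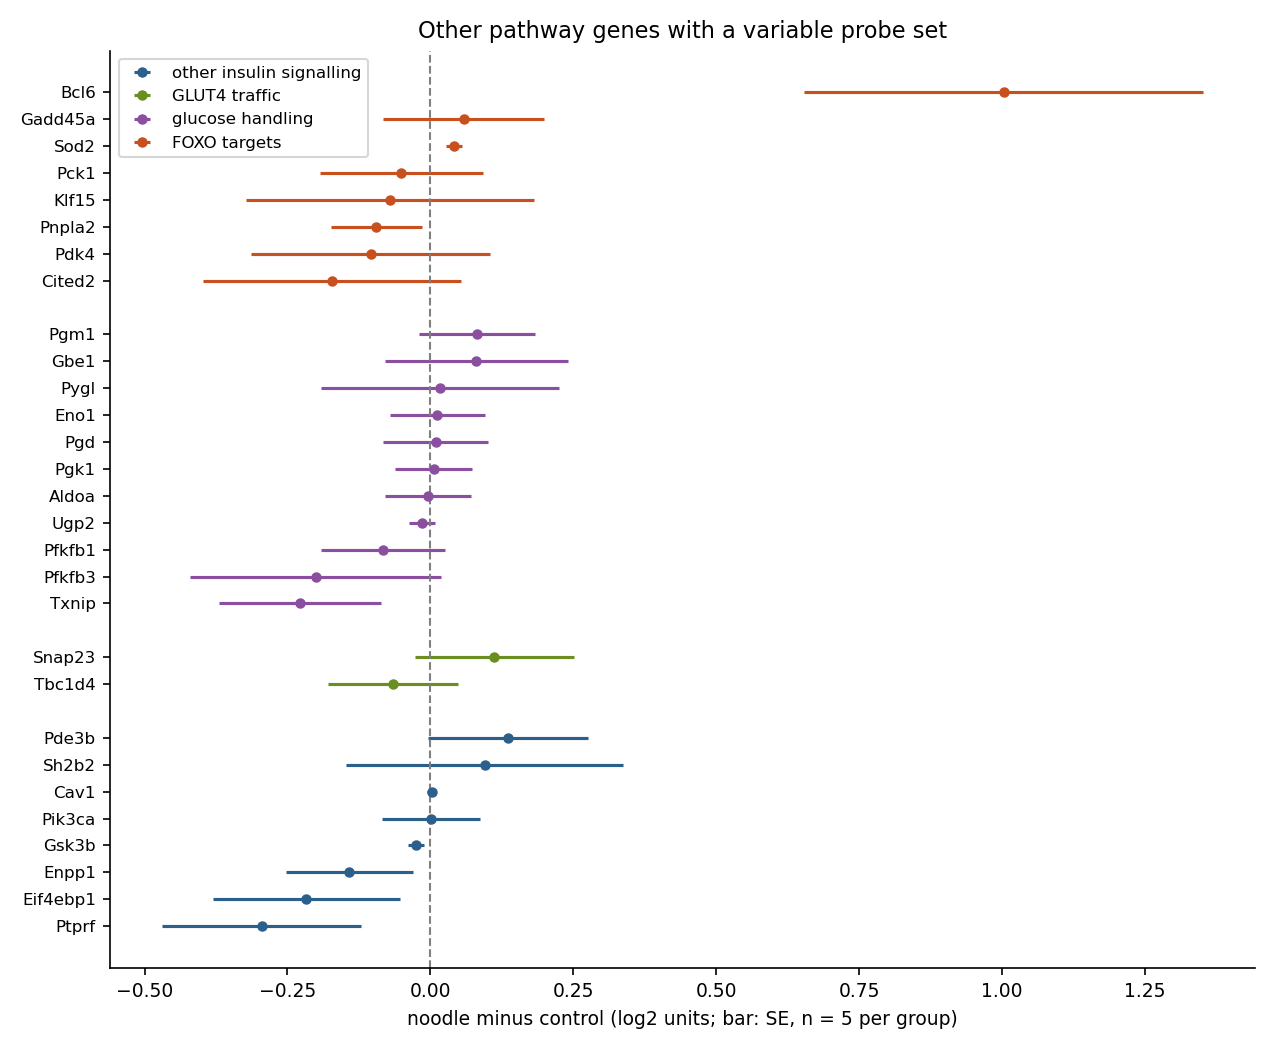
Diet difference (noodle minus control, log2 units) with SE for the 29 other pathway genes with a variable probe set, coloured by list. Apart from Bcl6 at 1.003, the widest is Ptprf at -0.30, and 0 passed the threshold.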

How the data were processed

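Arrays of white adipose tissue from 10 rats were grouped by the labels, 5 per diet. Per the labels' protocols, 100 ng of total RNA gave biotin-labelled cRNA. The deposited values, 1 per probe set and array, were read as log2 because of their span. Their log base, background correction, summarisation and normalization were not given in the sources used here. Of the probe sets, 57 controls were left out. Symbols came from the platform annotation (20826 probe sets with 1, 436 with several, 9780 with none), and 20758 matched the RefSeq gene table by gene ID, with 0 symbols changed.

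The fit was limma 3.58.1 in R 4.3.3 (lmFit, eBayes, two-sided), noodle minus control, with adjustment over all 31042 probe sets, checked on simulated data. Two-sided exact permutation tests over 252 assignments cannot give a p below 0.00794. Correlations used 100000 permutations. Each animal is 1 replicate, and 5 arrays per group limit the precision. Alternatives were quantile normalization, centring, dropping the dimmest 50%, an intensity trend, array weights, a 3-prime to 5-prime covariate, variable probe sets only, and leaving out each animal. A listed gene with several probe sets was read from its brightest variable one. All members are described; from each other list up to 4 variable genes with the smallest p are named, and the 3 probe sets most like Slc2a4, Irs3 and Hk2 (Insr was flat). Members, lists and tests were chosen with earlier results of these data known.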

Additional observations from a re-analysis of the deposited data

Results flagged for a closer look

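For each diet group, the 7 variable member probe sets, 4 marker list means and the 3-prime to 5-prime difference were searched for 1 animal far from the other 4. Of 24 groups, 0 had such an animal, where chance gives about 1.2 (1 in 20).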

How the results depend on the processing

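No paired analysis was possible because no animal number occurs in both groups and no feeding partner is named for any animal. The count of member probe sets past the threshold was 0 under every alternative run. The count over all probe sets was 0 under each of them except without control animal 14, where it was 1 (range 0 to 1). No member or other named gene passed under an alternative. Grb14 turned to 0.0044 with quantile normalization, 0.0016 with centring and 0.0056 with array weights, and ranged from -0.0145 to 0.011 without single animals. Pik3r1 turned to 0.0297 with array weights and ranged from -0.0965 to 0.0461 without single animals. Pfkfb1 turned to 0.0074 with array weights and Pfkfb3 to 0.0406 with the 3-prime to 5-prime covariate, and Tbc1d4 ranged from -0.108 to 0.0208 without single animals. The cause of these turns was not tested. Irs3 kept its sign, from 0.0475 to 0.128 without single animals, as did Akt2 (0.151 to 0.25), Slc2a4 (0.0542 to 0.215 on 1367989_at, 0.208 to 0.404 on 1388958_a_at) and Hk2 (0.0177 to 0.141). Without single animals the correlation of Irs3 and Slc2a4 ranged from 0.713 to 0.843, that of Irs3 and Akt2 from 0.725 to 0.84 and that of Slc2a4 and Hk2 from 0.558 to 0.821. The signs turned for Irs3 and Grb14 (-0.302 to 0.109), Pik3r1 and Hk2 (-0.0109 to 0.594), Akt2 and Grb14 (-0.282 to 0.419) and Grb14 and Hk2 (-0.541 to 0.0258). The diet difference of the gap between the Slc2a4 probe sets ranged from 0.129 to 0.199 without single animals. Leaving out animals for the correlations and the gap was chosen after the data were seen. Whether a flat probe set lacks signal or was made flat in the processing is not known from these values.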

Other observations

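One flat probe set of Akt2 kept the order of the variable one. On 1368832_at the 10 animals lay between 7.9058 and 7.9067, and 4 of 5 noodle animals lay above every control, with an unadjusted limma p of 0.0137 and an adjusted p of 0.993. It was the 1 of the 17 member probe sets, flat ones included, with an unadjusted p under 0.05, against 4.77% of all probe sets. Its unadjusted limma p was 0.297 with quantile normalization, 0.17 with centring and 0.13 with the 3-prime to 5-prime covariate. It stayed under 0.05 in the other alternatives, which for this flat probe set leave out the fit on variable probe sets only. Its values correlated with those of the variable Akt2 probe set 1387353_at at r = 0.84 (permutation p = 0.00211, adjusted p = 0.0116 over 11 pairs) and rho = 0.78 (permutation p = 0.0102, adjusted p = 0.0562). Without the 2 most distant animals r was 0.77, and with the diet means removed it was 0.74. The 2 other flat Akt2 probe sets correlated with 1387353_at at r = 0.15 (permutation p = 0.671) and r = -0.45 (permutation p = 0.183), and rho was 0.03 and -0.35. Of the 11 pairs of probe sets of 1 gene, 2 passed on r, this one and the Slc2a4 pair. These pairs were looked at after the values were seen.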
